A study of Bombyx mori with 4 samples.

Results

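Of the 130309 regions obtained by merging the ATAC-seq peaks of 4 silkworm libraries, 14809 (11.4%) were called open in the first brain library and the first fat body library and in neither second library. They are called the number 1 regions here. A merged region joins all peaks that overlap by 1 bp or more, and a region counts as open in a library if a peak of that library lies in it. They were chosen by the measured peak calls themselves, so ranks, folds and widths in the 2 lists describe the regions and were not tested.

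The libraries came from wild-type larvae of Bombyx mori strain P50, and every title gives the stage as L5D3. Per the labels there were 2 brain libraries and 2 fat body libraries, numbered 1 and 2 within each tissue, and no treatment. Whether the pair of libraries of 1 tissue came from different animals, and whether animals were pooled, is not in the labels. The peak names of brain 1 carry the code 5L-4D, which differs from its title, whereas those of fat body 1 carry 5l3d; a difference in stage between them and a difference in tissue cannot be told apart. No result below can be given without brain 1 or fat body 1, because both define the regions. Brain and fat body nuclei were not checked against marker genes, since no gene models of the build were used here.

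ATAC-seq exposes nuclei to a transposase that cuts and tags DNA where it is not wrapped in nucleosomes, so the density of cuts is read as openness. Open regions include promoters, which are often accessible in many tissues, and distal elements such as enhancers, which are more often accessible in a few. The fat body combines the roles that liver and adipose tissue have in vertebrates, and the brain consists of neurons and glia. The summit of a peak is the base with the highest pile-up of tagged fragments and is the closest that a peak list comes to the position of the exposed element.

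The lists numbered 1 held 36420 peaks in brain and 107057 in fat body, and those numbered 2 held 11572 and 14752. The lowest local background that could be recovered from the summits was 1.38 fragments in both lists numbered 1. It was 0.558 fragments in the second brain list and 0.534 fragments in the second fat body list. This lowest background rises with the number of reads, but also with the fragment length assumed in peak calling. Like values in brain 1 and fat body 1 therefore do not show that these libraries had equal read numbers. The number 1 regions thus lie in the longer list of each tissue, and no source used here gives the read counts. With 1 brain and 1 fat body library carrying them, there is no replicate error for any value below. Intervals are exact binomial 95% intervals over regions, and for a median the 95% interval of its rank. They cover counting over regions only, which are not replicates.

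The number 1 regions held 14815 brain 1 peaks and 16454 fat body 1 peaks, 40.7% of the brain 1 list and 15.4% of the fat body 1 list. In 13254 regions (89.5%) there was 1 peak of each list. In 1549 regions (10.5%) 1 brain 1 peak spanned several fat body 1 peaks, and in 6 regions there were several brain 1 peaks. Multiple calls thus lay almost always on the fat body side. The largest number of fat body 1 peaks in a region was 5, in 1 region. Together the regions covered 8.19 Mb, of which 2.90 Mb lay in peaks of both lists. This common stretch was 38.8% of the brain 1 peak bases and 80.4% of the fat body 1 peak bases in these regions.

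The brain and fat body summits usually lay close together. Taking the strongest peak of each list in a region (highest −log10 q), the summits were a median of 44 bp apart (43 to 45), with quartiles of 7 and 172 bp. They fell on the same base in 1073 regions (7.25%), within 10 bp in 4145 (28.0%) and within 50 bp in 7913 (53.4%). They were within 100 bp in 9831 regions, or 66.4% (65.6 to 67.1), against 67.8% of all 19196 regions called in both brain 1 and fat body 1. The number 1 regions make up 77.1% of those 19196 regions, so the 2 shares have most of their regions in common. At the far end, 4.89% of the summits were over 500 bp apart, and the largest distance was 2218 bp.

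Neither tissue's summit lay mostly on one side. The brain 1 summit had the higher coordinate in 6995 regions (47.2%) and the fat body 1 summit in 6741 (45.5%), and the median signed offset, brain 1 minus fat body 1, was 0 bp. The fat body 1 summit lay inside the brain 1 peak in 89.6% of the regions (89.1 to 90.1). The brain 1 summit lay inside the narrower fat body 1 peak in 74.0% (73.3 to 74.7), and both held in 70.7%. The rule asks for overlapping peaks, and a fat body 1 peak wholly inside the brain 1 peak has its summit there too, so these shares are partly fixed by the choice of regions and by peak width.

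**Figure D1:**
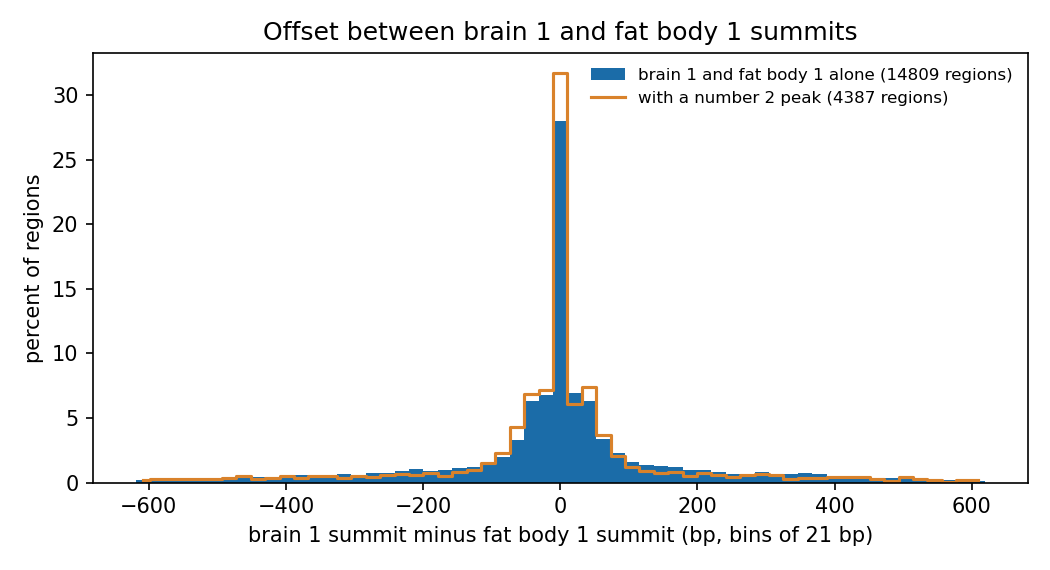
Signed distance from the fat body 1 summit to the brain 1 summit (x axis, bp, bins of 21 bp) against the percent of regions (y axis). Filled bars are the 14809 number 1 regions and the line is the 4387 regions of brain 1 and fat body 1 that also held a number 2 peak; the central bin, up to 10 bp on either side, holds 28.0% and 31.7%, and both distributions are centred near 0.

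Summit agreement was better among stronger peaks. Ranks are given as percentiles of −log10 q within each list, 100 being the strongest peak. Where the mean of the 2 percentiles was at most 20, the summits of 861 regions were a median of 101 bp apart (94 to 110), and 49.8% were within 100 bp. Between 40 and 60 the median was 71 bp (65 to 77) and the share 56.0%. Between 60 and 80 it was 31 bp (29 to 33) and the share 74.4%. Above 80 the summits of 2909 regions were a median of 8 bp apart (7 to 9), 91.5% lay within 100 bp (90.5 to 92.5) and 52.8% within 10 bp. The summits of strong number 1 regions thus lay closer together than those of weak ones. Where the mean was at most 20, 10.1% lay within 10 bp. Over all 14809 regions the distance had a Spearman correlation of -0.32 with the brain 1 percentile and -0.30 with the fat body 1 percentile; the points share 2 libraries and differ in width and pile-up.

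Regions of brain 1 and fat body 1 that also held a peak of a number 2 list were set beside them. Unsorted, those 4387 regions had summits a median of 38 bp apart (36 to 40), with 72.5% within 100 bp (71.1 to 73.8), closer than the 44 bp and 66.4% of the number 1 regions. They were also stronger, with a median percentile of 91.0 in brain 1 and 92.6 in fat body 1, and wider, with a median of 809 bp where the number 1 regions had 491 bp. At like mean rank the order was the other way round above the lowest ranks. In a number 1 region peaks of brain 1 and fat body 1 overlap by the rule, whereas a number 2 peak can join ones that do not. Part of the larger distances in regions with a number 2 peak may thus be fixed by the rule, and this was not tested. Of the 4387 regions, 76.9% had 1 peak each of brain 1 and fat body 1, against 89.5% of the number 1 regions. The number of peaks was not matched. Above a mean percentile of 80 the number 1 regions had 8 bp, against 27 bp (24 to 30) in the 3022 regions with a number 2 peak, and 91.5% against 82.6% (81.2 to 84.0) within 100 bp. Between 60 and 80 the medians were 31 bp, against 63 bp (54 to 78) in 680 regions, and between 40 and 60 they were 71 bp, against 149 bp (123 to 177) in 487 regions. At or below 20 they were 101 bp, against 98.5 bp (47 to 180) in 42 regions, and the intervals overlapped. Sorted by the fat body 1 percentile alone, the shares within 100 bp above 80 were nearly equal, at 80.1% (79.1 to 81.1) of 5754 number 1 regions and 80.4% (79.0 to 81.7) of 3252 regions with a number 2 peak. Sorted by the brain 1 percentile alone they were 88.3% (87.0 to 89.5) and 79.6% (78.1 to 81.0). Above 80 the shares were thus reversed by brain 1 rank and by mean rank, and not by fat body 1 rank. The medians above 80 by fat body 1 rank were in the reversed order, at 22 bp (20 to 24) against 29 bp (27 to 31). So were the shares in every lower class of fat body 1 rank, such as 61.9% against 55.2% from 60 to 80.

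Strong regions were also compared at like width. Above a mean percentile of 80 and at widths of 500 to 700 bp, the 843 number 1 regions had a median distance of 7 bp (6 to 9), against 21 bp (17 to 26) in 728 regions with a number 2 peak. At widths of 400 to 500 bp the medians were 5 bp (4 to 7) and 17.5 bp (8 to 26). At widths from 700 to 1000 bp they were 16 bp (12 to 21) and 25 bp (19 to 30). From 1000 bp they were 26 bp (15 to 34) and 41 bp (37 to 47). Below that, only 102 regions with a number 2 peak were 300 to 400 bp wide and 8 under 300 bp. The median was lower in the number 1 regions in all 6 width classes, though the intervals overlapped in 3 of them. Beyond rank and width no other property was matched, and no test across libraries was possible. Regions whose brain 1 and fat body 1 peaks were joined only by a number 2 peak were not set apart. In the 4677 regions found only in the lists numbered 2, the median summit distance was 79 bp (75 to 83), with 57.0% of them within 100 bp and 12.7% within 10 bp, in lists with other peak widths and a lower background.

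**Figure D2:**
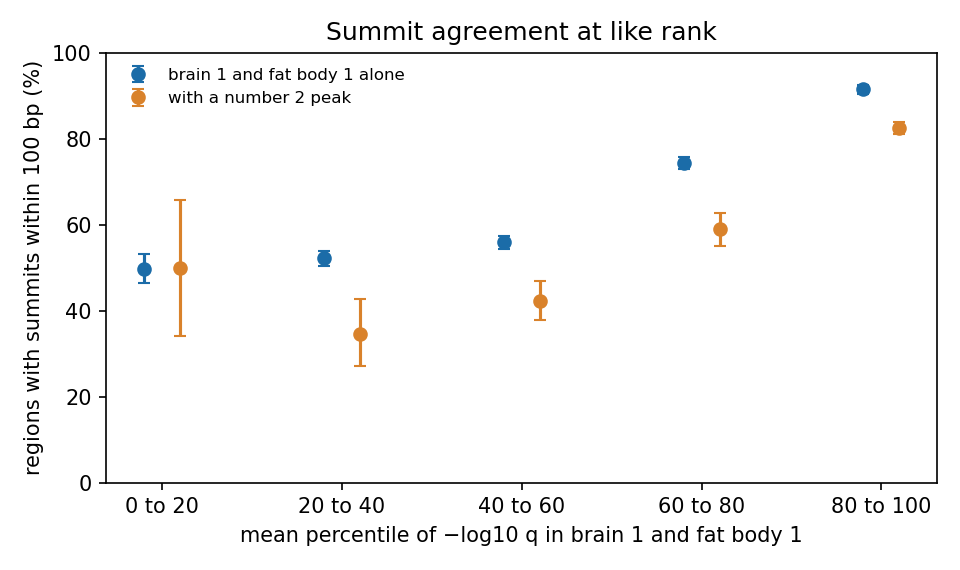
Percent of regions with brain 1 and fat body 1 summits within 100 bp (y axis) by the mean percentile of −log10 q in the 2 lists (x axis); points are the 14809 number 1 regions and the 4387 regions that also held a number 2 peak, and bars are exact binomial 95% intervals. At the strongest ranks the shares are 91.5% and 82.6%.

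The number 1 regions ranked in the middle of the brain list and high in the fat body list. Their median percentile was 48.8 in brain 1 (48.0 to 49.6), with quartiles of 24.3 and 73.7. It was 71.3 in fat body 1 (70.6 to 72.0), with quartiles of 43.8 and 88.0. The brain 1 list is the shorter one, so equal percentiles do not stand for equal signal. The median difference of the percentiles, brain 1 minus fat body 1, was -13.55 points, and the fat body percentile was the higher one in 71.4% of the regions. The percentiles were within 10 points of each other in 26.3% and over 50 points apart in 18.4%. Among those far apart, 444 regions stood higher in brain 1 and 2282 higher in fat body 1.

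The 2 ranks were only loosely related. Spearman's correlation between the percentiles was 0.38 over the 14809 regions, against 0.43 over the 4387 regions that also held a number 2 peak. Within the latter it was 0.43 with a brain 2 peak alone, 0.55 with a fat body 2 peak alone and 0.75 with both. These sets cover unlike ranges of rank, and the points of each set share 2 libraries. In 39.0% of the number 1 regions both peaks were above the 50th percentile, and in 20.1% neither was. In 9.87% the brain 1 peak alone was above it, and in 31.1% the fat body 1 peak alone. Both peaks were above the 80th percentile in 1907 regions (12.9%), and both at or below the 20th in 430 (2.90%). The fullest cell of the joint ranks, with 736 regions, held brain 1 percentiles of 80 to 90 and fat body 1 percentiles of 90 to 100.

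**Figure D3:**
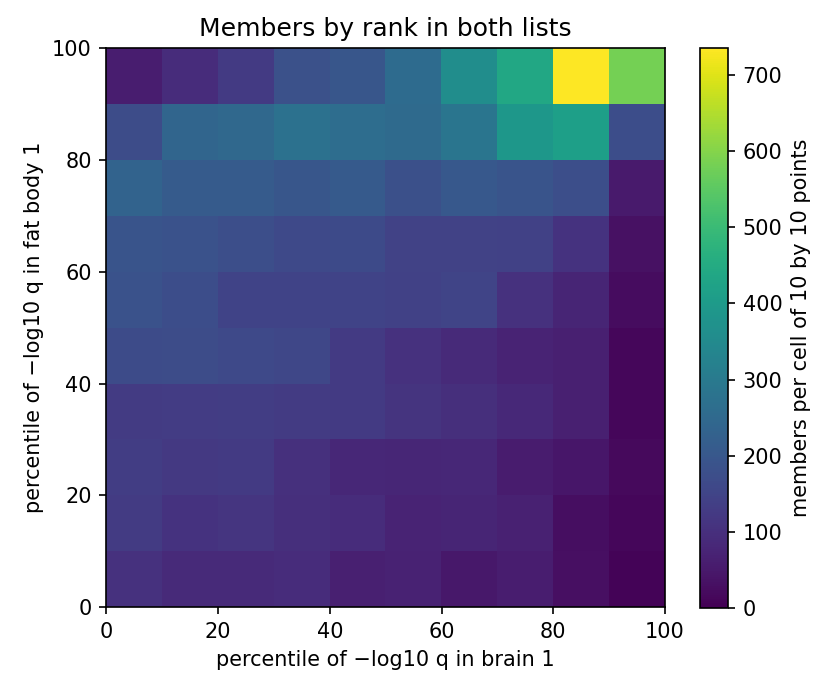
Number 1 regions by percentile of −log10 q in brain 1 (x axis) and in fat body 1 (y axis), in cells of 10 by 10 points, coloured by the number of regions per cell. The cells fill towards the top right, with 736 regions in the fullest and 7 in the cell at the bottom right, of strong brain 1 and weak fat body 1 peaks.

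Seen from the lists, the number 1 regions took an even share of most of the brain 1 list and a larger share of the stronger fat body 1 peaks. When brain 1 peaks were cut by −log10 q into 10 parts of equal size, the share in number 1 regions ran from 38.8% to 44.2% over the 8 weakest parts. It was 47.9% (46.3 to 49.5) in the next and 25.5% (24.1 to 26.9) in the strongest. In that strongest part 63.5% of the peaks lay in regions that brain 1 and fat body 1 shared with a number 2 list, against 3.68% in the weakest. The drop at the top of the brain list went with a larger share of regions also found in a number 2 library. In all, 89.0% of the strongest part lay in regions that also held a fat body 1 peak. In fat body 1 the share in number 1 regions was 7.89% (7.39 to 8.42) in the weakest part, 15.1% in the seventh and 29.2% (28.3 to 30.0) in the strongest. It was higher in each stronger part.

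**Figure D4:**
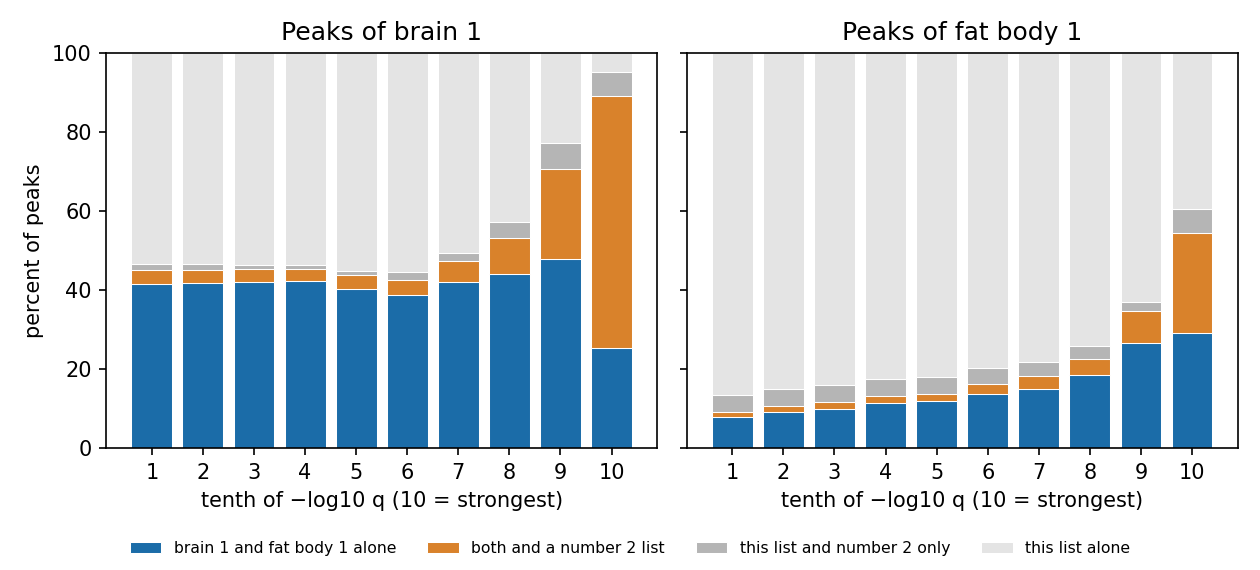
Peaks of brain 1 (left) and fat body 1 (right) cut by −log10 q into 10 parts (x axis, 10 being the strongest) and stacked by the kind of region they lie in (y axis, percent of peaks). The share in number 1 regions is 25.5% in part 10 of brain 1, against 38.8% to 47.9% in its other parts, and runs from 7.89% in part 1 to 29.2% in part 10 of fat body 1.

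Fold enrichment of the summit over local background, as the authors' peak caller gave it, had a median of 5.76 in brain 1 and 4.97 in fat body 1. The lowest folds were 1.76 and 2.02 and the highest 36.3 and 45.2. The fold and p of a summit together fix its pile-up. The pile-up had a median of 55 fragments in brain 1 and 39 in fat body 1, over local backgrounds of 8.96 and 7.85 fragments. The pile-up was solved only for summits below an upper limit of −log10 p. Among the number 1 regions, 14763 brain 1 and 14721 fat body 1 summits were solved. In regions that also held a number 2 peak, the medians over solved summits were higher. They were 168 fragments for brain 1 and 67 for fat body 1. Both leave out the strongest summits and so do not cover all 4387 regions. In the 1075 regions called in all 4 lists, 679 brain 1 and 765 fat body 1 summits were solved.

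Absence from the number 2 lists was set beside their lower background. If the pile-up and background of each brain 1 summit are scaled by the ratio of the lowest backgrounds, 0.405, then 11675 of 14763 number 1 regions (79.1%, 78.4 to 79.7) would keep a −log10 p of at least 5.03, the lowest in brain 2. For fat body 1, scaled by 0.386, 51.4% (50.6 to 52.2) would keep at least 6.69, which is the lowest value of the second fat body list. Where a number 2 peak was called and both pile-ups were solved, the scaled pile-up could be set beside the measured one. Summits past the upper limit of −log10 p were not solved, so the ratios leave out the strongest summits. Of the 2580 regions called in both brain lists and in fat body 1 alone among fat body lists, 2266 could be compared. In these 2266 regions the brain 2 pile-up was a median of 0.383 times the scaled one. Their fold was 4.56 in brain 2, against 11.3 in brain 1. Of the 732 regions called in both fat body lists and in brain 1 alone among brain lists, 517 could be compared. In these 517 regions the fat body 2 pile-up was 0.791 times the scaled one. Of the 1075 regions called in all 4 lists, 679 could be compared in brain and 757 in fat body. In these the measured pile-up came nearer to the scaled one, at 0.502 times in brain 2 and 0.910 times in fat body 2. The scaled pile-up was thus above the median measured one in all of these sets, by an amount that differed between them. The lowest background also moves with the fragment length assumed in peak calling, which the lists do not state. The shortest peak was 203 bp in brain 1 and 230 bp in brain 2, but 94 bp in fat body 1 and 212 bp in fat body 2. The ratios 0.405 and 0.386 may thus differ from the ratios of read number. The shares kept do not measure the part of depth in the absence, which was not tested.

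Brain 1 peaks were wider than the fat body 1 peaks they met. The merged regions had a median width of 491 bp (486 to 496), with quartiles of 351 and 682 bp. The strongest brain 1 peak in them had a median of 438 bp and the strongest fat body 1 peak 186 bp, close to the medians of 425 and 166 bp over all peaks of those lists. The brain 1 peak was the wider one in 88.5% of the regions, by a median factor of 2.29. The shortest peak of the brain 1 list was 203 bp and that of fat body 1 94 bp, so the 2 lists differ in minimum length. The widths of the 2 peaks were nearly unrelated across regions, with a Spearman correlation of 0.01.

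The fat body 1 peak lay wholly inside the brain 1 peak in 8108 regions (54.8%), and the reverse held in 670 (4.52%). The stretch common to both lists had a median of 171 bp, or 36.7% of the merged width. Of all number 1 regions, 15.5% were under 300 bp, 7.10% over 1000 bp and 129 (0.871%) at least 1500 bp wide. The width of a region limits how far apart its summits can lie, so shares by width are given as a description only. The share within 100 bp was 87.4% in regions under 300 bp, 61.3% in regions of 500 to 700 bp and 44.8% (41.8 to 47.9) in regions of 1000 bp or more. Regions with several fat body 1 peaks under 1 brain 1 peak had a median distance of 100 bp (78 to 134), against 42 bp (41 to 43) in regions with 1 peak of each.

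The 5 number 1 regions with the highest mean percentile had their summits at most 52 bp apart. The best of them spanned 2560292 to 2561055 on BHWX01000012.1, a width of 764 bp; its fold was 15.6 in brain 1 and 22.6 in fat body 1, and its summits were at 2560784 and 2560824. The next spanned 6473314 to 6474164 on BHWX01000020.1, with a fold of 17.6 in brain 1 and 23.3 in fat body 1 and summits 2 bp apart. After it came 1761197 to 1761838 on BHWX01000025.1, with a fold of 16.9 in brain 1 and 18.5 in fat body 1 and summits 43 bp apart. These 3 regions had percentiles between 99.4 and 99.7 in both lists. A second region on BHWX01000012.1, spanning 9003273 to 9003712, had a fold of 14.3 in brain 1 and 30.2 in fat body 1. The last, 1522405 to 1523172 on BHWX01000015.1, had a fold of 17.0 in brain 1 and 19.4 in fat body 1, with both summits at 1523019. Their nearest number 2 peaks were between 2100 and 19105 bp away, so none bordered on a number 2 call.

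The regions with the most unequal ranks were single peaks in each list. The region furthest towards brain lay on BHWX01000005.1 from 4254335 to 4255078. Its brain 1 peak had 11.8-fold enrichment and a pile-up of 356 fragments, and its fat body 1 peak had 2.19-fold enrichment and 37 fragments, yet the summits were 57 bp apart. The next 4 towards brain lay on BHWX01000010.1 from 3637733 to 3638040, BHWX01000022.1 from 1070623 to 1071097, BHWX01000017.1 from 3856581 to 3857222 and BHWX01000021.1 from 15011512 to 15011929. Their folds were between 11.5 and 16.1 in brain 1 and between 2.76 and 3.45 in fat body 1. Summits were 5 bp apart in the last of them and 313 bp apart in the one on BHWX01000017.1.

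The region furthest towards fat body lay on BHWX01000020.1 from 8678839 to 8679185, with a fold of 2.31 in brain 1 and 14.8 in fat body 1. Its pile-ups were 31 and 189 fragments, and its summits were 163 bp apart. The next 4 lay on BHWX01000009.1 from 7809334 to 7809663, BHWX01000012.1 from 7277828 to 7278192, BHWX01000012.1 from 8854719 to 8855245 and BHWX01000010.1 from 10012731 to 10013068. Their folds were between 2.53 and 3.01 in brain 1 and between 9.55 and 13.8 in fat body 1. The summits of these 5 regions were between 39 and 360 bp apart. One of them, on BHWX01000012.1 from 7277828, lay 110 bp from a number 2 peak, the closest of the 10 regions with unequal ranks.

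Of the 5 widest regions, 3 were wide in fat body 1 and 2 in brain 1. On BHWX01000001.1 from 18110097 to 18114618 a single fat body 1 peak of 4522 bp, with 30.9-fold enrichment, overlapped a brain 1 peak of 347 bp with 4.63-fold enrichment. On BHWX01000004.1 from 8106987 to 8109908 a fat body 1 peak of 2922 bp, with 24.95-fold enrichment, overlapped a brain 1 peak of 427 bp, and the summits were 3 bp apart. Another, on the unplaced sequence BHWX01000044.1 from 33185 to 35879, had a fat body 1 peak of 2695 bp and a brain 1 peak of 1263 bp. The other two were wide in brain. On BHWX01000023.1 from 18110677 to 18113513 a brain 1 peak of 2739 bp overlapped a fat body 1 peak of 152 bp, and the summits were 2218 bp apart. On BHWX01000011.1 from 10578237 to 10580881 a brain 1 peak of 2645 bp held 2 fat body 1 peaks.

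The 3 regions with the lowest mean percentile had folds between 2.47 and 2.69 in either list. They lay on BHWX01000018.1 from 13510863 to 13511170, BHWX01000017.1 from 12077945 to 12078164 and BHWX01000026.1 from 9178588 to 9179230. Their pile-ups were between 23 and 31 fragments and their summits between 96 and 272 bp apart.

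Along the genome the number 1 regions were spread over every long sequence. The 28 long sequences, between 8.36 and 21.5 Mb as far as peaks reach, held 14762 of them, or 33.2 per Mb. The density had a median of 33.6 per Mb over the sequences. It was highest on sequence 10, with 42.2 per Mb, and on sequence 3, with 41.1 per Mb. It was lowest on sequence 1, with 21.1 per Mb, and on sequence 2, with 23.7 per Mb. Sequences 1 and 2 thus held fewer per Mb than any of the other 26, which started at 26.0 per Mb on sequence 26.

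As a share of all merged regions the order was different. The number 1 regions were 14.6% of the regions of sequence 10 (13.6 to 15.6), 10.9% of those of sequence 1 (9.95 to 11.9) and 7.75% of those of sequence 2 (6.74 to 8.86), where the median sequence had 11.3%. Sequence 1 thus had few number 1 regions per Mb but a share near the median. Fat body 1 had 146 peaks per Mb there, against 230 to 267 per Mb on the others, and brain 1 had 65.2 per Mb, against 68.0 to 94.8. The local background at the fat body 1 summits of its number 1 regions had a median of 5.41 fragments on sequence 1, the lowest of the 28, where the median sequence had 8.08. In brain 1 it was 8.06 on sequence 1, where the median sequence had 9.03. Sequence 28 had a background of 5.74 fragments in fat body 1 and 6.28 in brain 1, with 36.8 number 1 regions and 267 fat body 1 peaks per Mb. Any part of the background in the density was not tested.

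Sequence 1 also had the best agreement of the summits. There 77.7% of 435 regions had them within 100 bp (73.5 to 81.5), against 59.5% to 70.2% on the other 27 sequences. Its median brain 1 percentile, 63.3, was the highest of the 28, and its fat body 1 percentile of 72.5 lay near the median of 71.1. The poorest agreement was on sequence 28, with 59.5% of 390 regions (54.4 to 64.4). Median widths differed little between sequences and ran from 460 to 536 bp.

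**Figure D5:**
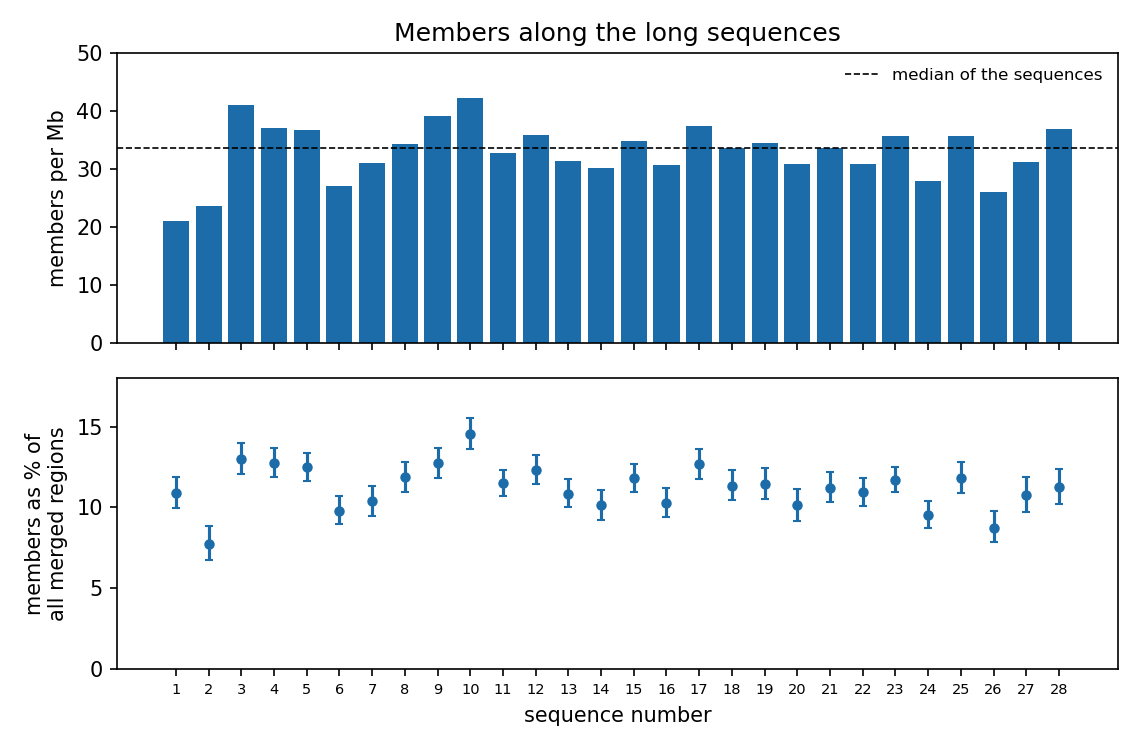
Number 1 regions per Mb of each long sequence (top, bars from 0, with the median of 33.6 per Mb dashed) and as percent of all merged regions of that sequence (bottom, with exact binomial 95% intervals), by sequence number. Sequences 1 and 2 are lowest per Mb, with 21.1 and 23.7. In the lower panel sequence 2 has the lowest share, 7.75% (6.74 to 8.86), with an interval that overlaps that of sequence 26 (7.82 to 9.75).

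The density was related to that of the peaks of the 2 lists that define the regions. Over the 28 sequences, members per Mb had a Spearman correlation of 0.83 with brain 1 peaks per Mb, 0.68 with fat body 1 peaks per Mb and -0.21 with number 2 peaks per Mb; the points share the libraries and the sequence lengths. In 430 full bins of 1 Mb the number of regions had a median of 33, quartiles of 27 and 40, and a range from 10 to 57, so no bin was empty. The 3 fullest bins had 57 regions each and lay on sequence 3 from 7000001 to 8000000, on sequence 10 from 1 to 1000000 and on sequence 18 from 7000001 to 8000000. The emptiest lay on sequence 24 from 3000001 to 4000000, with 10. The number 1 regions were 19.1%, 19.1% and 17.6% of the merged regions of the 3 fullest bins and 4.05% in the emptiest.

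Bins at the ends of sequences differed little from the rest, with a median of 30 regions in 56 end bins and 33 in 374 inner ones. Neighbouring number 1 regions were a median of 19.3 kb apart, with quartiles of 8.70 and 38.2 kb, and 2.76% of the gaps were under 1 kb. The longest stretch without one was 443 kb, on sequence 6.

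Unplaced sequences, none reaching past 0.288 Mb, held few number 1 regions. There were 47 on 21 of these sequences, 6.29% of their 747 merged regions (4.66 to 8.28), against 11.4% (11.2 to 11.6) on the long sequences. Regions held by both lists numbered 2 and by neither other list were placed the other way, with 147 on unplaced sequences, or 19.7% of the regions there, where they were 3.59% of all merged regions. The summits of the 47 were a median of 33 bp apart, and their median percentile was 45.0 in brain 1 and 79.0 in fat body 1.

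Few number 1 regions depended on the edge of the rule. The stretch common to both tissues was at most 10 bp in 167 regions (1.13%) and 1 bp in 6. Those 167 had median percentiles of 25.4 in brain 1 and 37.2 in fat body 1, and their summits were a median of 304 bp apart. Just outside, 50 of the 16215 regions of brain 1 alone had a fat body 1 peak less than 10 bp away, with a median brain 1 percentile of 29.5. On the side of the number 2 lists, 65 regions (0.439%) had a number 2 peak within 100 bp, with median percentiles of 36.9 and 64.7. Just outside, 61 regions shared at most 100 bp with a number 2 peak, with median percentiles of 38.7 in brain 1 and 76.9 in fat body 1.

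From a number 1 region the nearest number 2 peak was a median of 8939 bp away, and 7.15% of the regions had one within 1000 bp. That median leaves out 8 regions on unplaced sequences with no number 2 peak. The rule leaves out regions with a number 2 peak, and these peaks are sparse. Their density ran from 35.2 per Mb on sequence 1 to 102 per Mb on sequence 2 among the long sequences. No like distance was taken for other regions, so the median describes spacing only. With as many of the best peaks from each list as the shortest list holds, 11572, there were 1976 such regions with summits a median of 7 bp apart, 92.6% of them within 100 bp. That selection shortens the lists and removes weak peaks at once, and the part of each was not tested.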

How the data were processed

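Peaks were deposited by the authors as 1 list per library, not on pooled reads. The submitters' processing notes name MACS2 2.1.0, Bowtie2, Trim Galore, deepTools 3.3.0 and Picard. Peak names carry a cutoff, marked as p in brain 2 and fat body 1, as q in fat body 2 and unmarked in brain 1; those of fat body 2 also carry a mapping quality of q20 and duplicate removal. Other settings, and a name of the build besides the BHWX01 sequence names, were not given in the sources used here. In the deposited lists a peak carries the fold of its summit (a ratio to the background nearby), −log10 values of p and q, the offset of the summit and a whole-number score that was not used. The smallest −log10 p of the lists was 5.01, 5.01 and 5.03, but 6.69 for fat body 2, so they were not cut alike.

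From these, peaks of all 4 lists were merged where they overlapped by 1 bp or more, and each region was given the peak with the highest −log10 q of each list. Percentiles are ranks within a whole list. Pile-up and background at a summit were solved from fold = (pile-up + 1) / (background + 1) and the Poisson p, over whole pile-ups from 2 to 1000 and a −log10 p under 250, within a relative tolerance of 2e-05; 1 whole pile-up met both for 100.0% of the searched summits of brain 1 and of fat body 1. Long sequences are those that reach past 1 Mb, numbered as in their names, and lengths are the highest listed end. Coordinates are 1-based. Intervals are Clopper-Pearson at 95% and cover counting error only. Merging, distances and pile-ups were tested on simulated data. Python 3.11.15, numpy 2.4.6, pandas 2.3.3 and scipy 1.17.1 were used.

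Named regions are the 5 with the highest mean percentile, the 5 with the highest and the 5 with the lowest difference of percentiles, the 5 widest, the 3 with the lowest mean percentile and the 3 fullest bins of 1 Mb; the emptiest bin and sequences 1, 2, 3, 6, 10, 26 and 28 were named after their values were seen. The members, strata and rules were chosen with earlier results of these data known. Genes and sequence motifs were not analysed here.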

Additional observations from a re-analysis of the deposited data

How the results depend on the processing

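With all peaks below a −log10 q of 5 left out, the median percentile was 50.3 in brain 1 and 72.4 in fat body 1, the summit distance 42 bp and the width 498 bp. With the best 11572 peaks of each list there were 1976 regions, 4.16 per Mb, with percentiles within the whole lists of 85.7 and 94.2, a distance of 7 bp, 92.6% within 100 bp and a width of 579.5 bp; weak peaks are left out by construction. With an overlap of 50% of the shorter peak the values were 30.5 per Mb, percentiles of 51.3 and 73.0, 38 bp, 71.4% and 479 bp. With windows of 100 bp on either side of the summits they were 27.9 per Mb, 52.9 and 74.0, 28 bp, 85.2% and 228 bp; windows cap the distance. With 1 peak of each list they were 30.2 per Mb, a fat body 1 percentile of 70.0, 42 bp, 68.3% and 462 bp. The closest pair of summits gave 41 bp and 69.4%, and ranking by fold gave a brain 1 percentile of 51.8. Except where given, the cause was not tested. Leaving out brain 2 or fat body 2 as a ground for exclusion gave 15542 to 17397 regions, 35.2 to 39.2 per Mb, percentiles of 49.5 to 56.8 and 72.8 to 74.97, 42 to 44 bp, 66.7 to 67.5% and 495 to 527 bp. Leaving out sequence 1 or the unplaced sequences, or widening number 2 peaks by 500 bp, left all 7 values within their intervals or, for the count, within 1.5 times. Of 76 values under other settings, 38 stayed within those limits. No setting exists without brain 1 or fat body 1. No paired analysis was possible because the values come from no test. Absence of a peak and too few reads to call one cannot be told apart in peak lists.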
